A study of Mus musculus with 46 samples.

Results

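Mouse protein-coding genes whose bodies are longer than 300 kb were examined for peaks of the replacement histone H3.3 and of 2 methylated forms of histone H3, trimethylation of lysine 4 (H3K4me3) and that of lysine 36 (H3K36me3). Members were all protein-coding genes of GENCODE vM1 on build mm9 with an end minus start above 300 kb, which gave 528 of 22367 genes. Their bodies ran from 300.5 to 4434.9 kb with a median of 439.2 kb, and 52 were above 1 Mb. Together they took 29.35% of all base pairs in bodies of protein-coding genes. At the edge of the rule, Pam (300.532 kb) was just inside, with 5.24% of its body under H3.3 peaks in D0 and 0.709% in iPSCs. Jazf1 (299.834 kb) was just outside, with 2.71% and 2.12%.

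The peaks came from ChIP-seq of 2 conversions of mouse embryonic fibroblasts (MEFs), with 1 library per group. In reprogramming, fibroblasts of E13.5 embryos carrying Oct4-IRES-EGFP (D0) received Oct4, Sox2, Klf4 and c-Myc by pMXs retrovirus, and were taken unsorted on day 3 (D3), sorted by Thy-1 on days 6 and 9 (D6T-, D6T+, D9T-, D9T+), sorted by SSEA-1 on days 12 and 16 (D12S+, D12S-, D16S+, D16S-), and as established iPSCs. T- and S+ fractions are those on the way to iPSCs, while T+ and S- are the other fraction of the same day. In transdifferentiation, H3.3 was profiled in MEF before induction of Scl, Lmo2, Runx1 and Bmi1, in D4 on day 4 after it, and in fractions sorted as cKit+ and cKit-. ESD3 is the mouse embryonic stem (ES) cell line D3. This gave 16 H3.3 libraries, and 7 libraries each of H3K4me3 and H3K36me3 from D0 along the T- and S+ route to iPSCs. Each library is a bulk measurement, so a smaller share of cells with a peak and a weaker signal per cell cannot be told apart.

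The libraries held 13.2 to 91.8 M tags. Peaks took between 1.65% (cKit+) and 37.2% (D4) of the tags in H3.3 libraries and between 1.07% (D12S+) and 42.4% (D9T-) in H3K36me3 libraries, so the cover of a body is read within a library and not as an absolute level. As a check of the labels, H3.3 peaks lay over the bodies of 11 of 12 fibroblast markers and 2 of 12 pluripotency markers in D0, and of 3 and 11 in iPSCs. MEF had 12 and 2, and ESD3 had 0 and 8. The cKit+ library had H3.3 peaks over 4 of 11 haematopoietic markers, with none over Kit itself, Ptprc, Tal1 or Vav1, so its label as a progenitor fraction is not visible in this mark. The cKit- library had peaks over 7 of the 11, also without Kit. For comparison, D0 had peaks over 6 of these 11, MEF over 5, iPSCs over 7 and D4 over 10. Of the 12 fibroblast markers, 8 had a peak in cKit+ and 7 in cKit-.

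H3.3 is placed into chromatin outside DNA replication, and is found at active promoters, enhancers and the bodies of transcribed genes. H3K4me3 marks the start of active genes, and H3K36me3 is laid down behind elongating RNA polymerase, rising towards the 3' end. Very long genes consist almost entirely of introns, and many are known for roles in neuronal adhesion and signalling, while several lie at common fragile sites.

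Sequence is shown for 3 long genes with H3.3 cover in fibroblasts and none in pluripotent cells, and for 3 of the opposite kind, since these genes lead the one-state calls described further on. Each run is 200 bases about the middle of the highest-scoring H3.3 peak in the body, on the plus strand of mm9, from D0 for the first 3 genes and from iPSCs for the last 3. Capitals mark a match to the octamer ATGCAAAT on either strand, the sequence bound by POU factors such as Oct4. The windows lie at chr1:164153937-164154136 (Dnm3), chr14:23634357-23634556 (1700112E06Rik), chr15:32252889-32253088 (Sema5a), chr1:46399615-46399814 (Dnahc7b), chr8:77978410-77978609 (1700007B14Rik) and chr13:77578183-77578382 (2210408I21Rik). All 6 are intronic with no UTR base.
Dnm3: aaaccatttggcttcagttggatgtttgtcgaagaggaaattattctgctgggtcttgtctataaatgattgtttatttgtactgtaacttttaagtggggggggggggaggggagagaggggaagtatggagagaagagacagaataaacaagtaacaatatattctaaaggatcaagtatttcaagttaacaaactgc
1700112E06Rik: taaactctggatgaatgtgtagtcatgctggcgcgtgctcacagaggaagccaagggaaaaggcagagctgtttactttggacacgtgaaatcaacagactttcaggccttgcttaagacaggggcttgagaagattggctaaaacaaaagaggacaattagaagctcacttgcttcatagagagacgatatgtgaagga
Sema5a: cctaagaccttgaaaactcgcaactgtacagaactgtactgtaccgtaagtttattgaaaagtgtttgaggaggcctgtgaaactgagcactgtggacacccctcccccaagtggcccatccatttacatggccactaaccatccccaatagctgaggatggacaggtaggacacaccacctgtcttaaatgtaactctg
Dnahc7b: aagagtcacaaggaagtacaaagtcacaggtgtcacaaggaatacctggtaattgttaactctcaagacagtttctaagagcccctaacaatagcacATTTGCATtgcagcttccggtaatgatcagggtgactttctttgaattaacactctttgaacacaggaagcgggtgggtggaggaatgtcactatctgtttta
1700007B14Rik: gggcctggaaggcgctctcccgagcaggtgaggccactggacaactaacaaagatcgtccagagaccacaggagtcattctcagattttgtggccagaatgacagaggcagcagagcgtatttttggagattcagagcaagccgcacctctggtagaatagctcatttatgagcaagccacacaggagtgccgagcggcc
2210408I21Rik: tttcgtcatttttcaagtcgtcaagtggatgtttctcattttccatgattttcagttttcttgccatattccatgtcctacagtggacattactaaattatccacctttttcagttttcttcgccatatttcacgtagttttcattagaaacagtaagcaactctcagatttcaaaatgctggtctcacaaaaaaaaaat

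The first 3 windows lay under an H3.3 peak in D0, MEF and D4 and in 2 or 3 other libraries, and in neither iPSCs nor ESD3. The MEF peaks at these windows were at 2.5-fold (Dnm3), 2.07-fold (1700112E06Rik) and 2.05-fold (Sema5a) over input. Those of 1700112E06Rik and Sema5a were close to the limit of 2 for calling a peak. Of the last 3, the windows in 1700007B14Rik and 2210408I21Rik lay under an H3.3 peak in iPSCs only, and the ESD3 peaks in those genes lay elsewhere in the body. The Dnm3 window lay 254.1 kb from the start of the gene, inside the antisense transcript Dnm3os on the plus strand. Its peak scored 117 normalized tags (the tag count scaled to 10 M tags per library) at 3.33-fold over input in D0. The Dnahc7b window, 276.1 kb into the gene, was the only one of the 6 with the octamer, and it lay under a peak in D16S+, iPSCs and ESD3. The 2210408I21Rik peak scored 2382 normalized tags at 2.08-fold over input. In iPSCs 6 of 81542 H3.3 peaks scored above 1000, and the 99th percentile was 96.1. The fold over input was close to the limit of 2 for calling a peak, so the input also had many tags there, and whether the letters belong to a repeat was not tested.

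Long genes carried less of all 3 marks per base than shorter genes in every library. H3.3 peaks covered 0.290% (cKit-) to 6.63% (D4) of the 298.4 Mb of long bodies, with a median over libraries of 1.33%. D0 had 2.84%, MEF 1.35%, iPSCs 1.30% and ESD3 0.682%. In bodies of 100 to 300 kb (1873 genes) the same libraries had 8.49%, 3.42%, 4.64% and 2.16%. The log2 ratio of the cover of long bodies to that of bodies of 100 to 300 kb was -1.74 ± 0.20 (SD over 16 libraries), or 3.35-fold less cover in the long genes, and was negative in 16 of 16 libraries. An exact permutation test (two-sided, by sign flips of the library values) gave p = 3.052e-05, the smallest it can give, and 0.0001017 after Benjamini-Hochberg adjustment over 10 tests. Cell states are not replicates, so this p describes how regularly the direction recurs over states and says nothing of the spread between cultures.

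For H3K4me3, long bodies had 1.24% (D0), 0.814% (D3), 1.28% (D6T-), 0.998% (D9T-), 0.521% (D12S+), 0.206% (D16S+) and 0.646% (iPSCs) of their bases under peaks. This was 2.62-fold less than in bodies of 100 to 300 kb (log2 ratio -1.39 ± 0.18, SD, 7 libraries, exact permutation p = 0.01562, the smallest possible, adjusted 0.01953). For H3K36me3, long bodies had 2.38% (D0), 0.946% (D3), 2.09% (D9T-) and 0.407% (D6T-) early on, and then 0.0772% (D12S+), 0.104% (D16S+) and 0.152% (iPSCs) late. The cover was 5.71-fold below that of bodies of 100 to 300 kb (log2 ratio -2.51 ± 0.14, SD, 7 libraries, exact permutation p = 0.01562, adjusted 0.01953). H3K36me3 cover of long genes was low in D12S+, D16S+ and iPSCs, where peaks of this mark took 1.07% to 2.88% of tags, against 31.3% in D0. How much of the low cover comes from these weakly enriched libraries was not tested. Peaks were called at a fold over input of at least 2 for H3.3 and at least 4 for the other marks, so shares of different marks are not set against each other here.

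**Figure D1:**
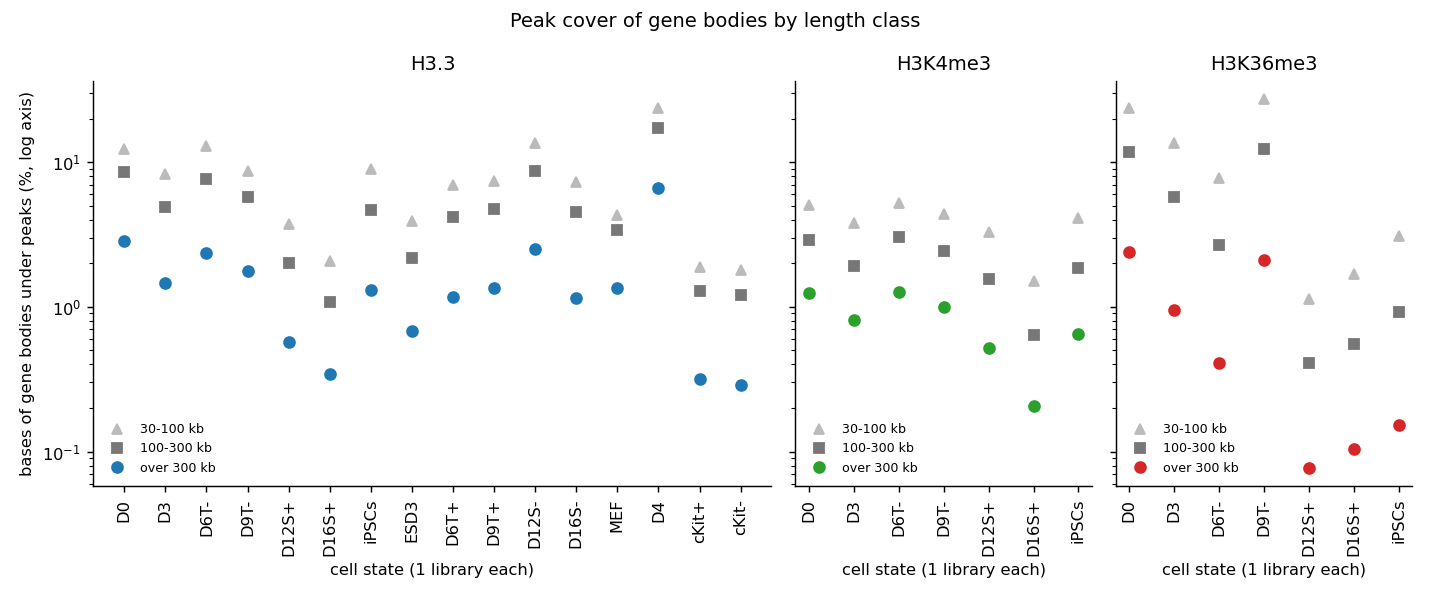
Share of bases of gene bodies under peaks (%, log axis) by cell state for each mark, with 1 library per point, for bodies over 300 kb (circles), of 100 to 300 kb (squares) and of 30 to 100 kb (triangles). In all 30 libraries the circle is the lowest of the 3 symbols, at 2.84% against 8.49% and 12.3% for H3.3 in D0.

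The base composition of long genes differed as well, with a GC content of 40.8% over all long bodies against 42.9% in bodies of 100 to 300 kb. Among bodies of 40 to 44% GC in both classes (200 and 751 genes), the log2 ratios were -1.46 (H3.3), -1.12 (H3K4me3) and -2.53 (H3K36me3), so the lower cover was also present there. That comparison was chosen after seeing the data. Against bodies of 30 to 100 kb the ratios were -2.43, -2.38 and -3.91.

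The fractions on the way to iPSCs and the other fractions were compared for the same log2 ratio by day. The towards fraction minus the other was 0.13 on day 6, 0.094 on day 9, -0.020 on day 12 and 0.31 on day 16 for H3.3. The mean difference was 0.13 ± 0.14 (SD, 4 days), with an exact two-sided permutation p of 0.25 (adjusted 0.2778), where 4 days cannot give less than 0.13. A difference between the fractions in how strongly long genes were depleted of H3.3 was therefore not detectable with these libraries.

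A pair of gene models held much of the cover. Gm20388 (chr8:122434741-126869622, plus strand) spans 4434.88 kb and contains the whole bodies of 72 other protein-coding genes, and Fgfr2 (chr7:137305965-140315033, minus strand) spans 3009.07 kb and contains 31. Fgfr2 encodes a fibroblast growth factor receptor, and a peak in its model can belong to any gene inside it. They took 2.494% of the base pairs of long bodies but a median of 14.5% of the H3.3 cover (range 7.59 to 23.15% over 16 libraries). For H3K4me3 the median was 14.6% and for H3K36me3 14.8%. Of the 528 members, 434 contained no other protein-coding gene. Without both models the log2 ratios to bodies of 100 to 300 kb were -1.95 (H3.3), -1.59 (H3K4me3) and -2.81 (H3K36me3), a calculation added after seeing the data.

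Within the long genes, the longest were the barest once both models were set aside. H3.3 cover had a median over libraries of 1.68% in the 328 bodies of 300 to 500 kb and 0.940% in the 148 of 500 to 1000 kb. In bodies above 1000 kb it was 1.16% with both models and 0.405% without them. Cover was lower in each longer class in 16 of 16 H3.3 libraries without the models, and in 2 of 16 with them. The same held for 7 of 7 H3K4me3 and 7 of 7 H3K36me3 libraries without them, and for 0 of 7 of each with them. The fold from the shortest to the longest class was 4.16 (H3.3), 2.78 (H3K4me3) and 5.73 (H3K36me3) without the models.

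**Figure D2:**
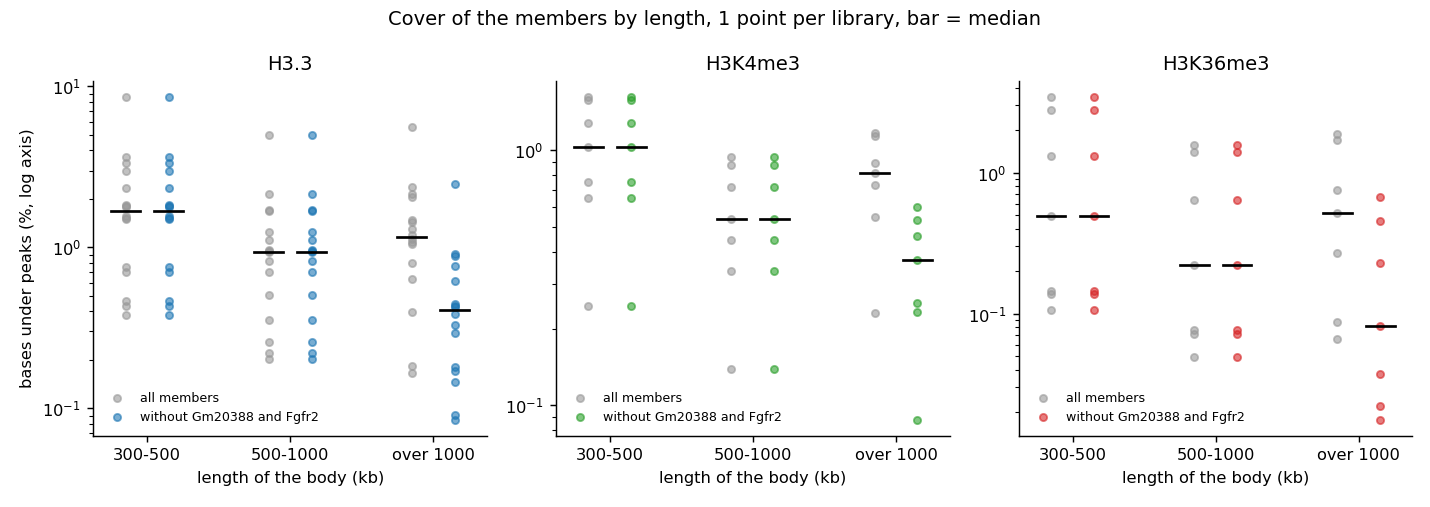
Share of bases under peaks (%, log axis) in members of 300 to 500, 500 to 1000 and over 1000 kb, 1 point per library and a bar at the median, with all members (grey) and without Gm20388 and Fgfr2 (coloured). The medians for H3.3 are 1.68%, 0.940% and, without both models, 0.405%.

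The other 8 of the 10 longest members were all sparsely covered. Dmd, which encodes dystrophin, had H3.3 over 0 to 0.561% of its body (median 0.0575%, highest in D6T-). Lrp1b, a large endocytic receptor gene, ranged from 0 to 0.290% (median 0.0364%) and was highest in iPSCs, against 0.0486% in D0. Cntnap2, a neurexin-family adhesion gene, had 0.146% in D0, 0.706% in iPSCs and 1.03% in D4. Csmd1 had a peak in only 5 of the 16 H3.3 libraries, with at most 0.661% in D4. Ptprd, Macrod2, Dlg2 and Nrxn3 had medians of 0.163%, 0.223%, 0.322% and 0.102%, each with its highest value in D4 (1.72%, 2.02%, 1.54% and 1.66%). D4 was also the library with the most H3.3 peaks and the highest share of tags in peaks.

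A smaller set of long genes was covered at every stage. Macf1 (chr4:123026876-123361603, minus strand), which encodes a crosslinker of microtubules and actin, had H3.3 over 5.44% (cKit+) to 49.4% (D4) of its body, with a median of 20.5% over 16 libraries. It had 21.5% in D0 and 34.4% in iPSCs, the largest share of any long gene in iPSCs. Dst, its relative in cytoskeletal linkage (chr1:33965125-34365495, plus strand), had a median of 26.3%, with 29.0% in D0 and 29.4% in iPSCs. In MEF and ESD3, Macf1 had 6.17% and 14.5%, and Dst 5.79% and 10.7%.

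H3K36me3 over these genes separated early from late libraries. Macf1 had H3K36me3 over 43.07% of its body before conversion, then 27.8% (D3), 17.4% (D6T-) and 43.3% (D9T-), followed by 2.48% (D12S+), 3.86% (D16S+) and 4.92% (iPSCs). Dst had 38.45%, 27.9%, 19.5%, 41.7%, 3.97%, 3.67% and 4.56% in the same order. Both were high up to D9T- and low from D12S+ on. The values of Macf1 follow the share of tags in peaks of these libraries in rank, from 1.07% in D12S+ to 42.4% in D9T-. They still ranked first and second among long genes for H3K36me3 in iPSCs, before Etl4 (3.73%), Gm20388 (3.02%) and Nav2 (2.96%). The longest unbroken H3K36me3 run in D0 was 52.43 kb long and lay in Macf1.

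The largest H3.3 shares in D0 were in Rere, a transcriptional corepressor gene (34.6%), AF064781 (33.7%), Apbb2, which encodes an adaptor of the amyloid precursor protein (32.6%), Dst (29.0%) and Snd1 (28.8%). In iPSCs they were in Macf1, Dst, the RNA-binding protein gene Msi2 (29.2%), Rere (23.1%) and Etl4 (22.3%). Msi2 had 14.3% in D0 and 17.4% in ESD3, and its highest share was 38.8% in D12S-. Etl4 ranged from 0 to its iPSC value, with a median of 4.54%. The largest H3K4me3 shares were 10.9% (AF064781), 9.18% (Gm20388), 8.47% (Rere) and 6.79% (2010111I01Rik) in D0, beside Tcf4 with 10.4%. In iPSCs they were 6.84% (Macf1), 6.17% (Gm20388), 5.77% (Dst), 5.68% (Msi2) and 3.91% (Etl4).

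More long genes had the larger H3.3 share in D0 than in iPSCs. Of 528, 356 had more in D0, 137 more in iPSCs and 33 no peak in either, and the medians were 1.17% and 0.387%. When each library was limited to the same number of its best peaks, the counts were 261, 121 and 146. For H3K4me3, 411 had more in D0 and 104 more in iPSCs, and with equal peak numbers 410 and 84. For H3K36me3 the counts were 294 and 26, with no peak in either for 204, and with equal peak numbers 110 and 15, with none in either for 403. At 1% or more of the body, H3.3 covered 280 long genes in D0 and 142 in iPSCs. MEF, the other fibroblast library, had 188 such genes and a median share of 0.487%, nearer to iPSCs than to D0. Genes of 100 to 300 kb leaned the same way, with 1146 higher in D0 and 570 higher in iPSCs for H3.3, 1343 and 446 for H3K4me3, and 1234 and 106 for H3K36me3.

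Bodies were cut along the strand into 10 bins of equal length to see where the peaks lay. H3.3 lay towards both ends. In D0 the first bin had 3.60% of its bases under H3.3 peaks, bin 5 had 2.44% and the last 3.37%, and in iPSCs these were 2.15%, 0.977% and 1.63%. The log2 ratio of the first bin to the mean of bins 2 to 10 was 0.45 ± 0.15 (SD, 16 libraries), a 1.37-fold higher cover, and that of the last bin to the mean of bins 2 to 9 was 0.39 ± 0.15, 1.31-fold. Both were positive in 16 of 16 libraries (exact permutation p = 3.052e-05, the smallest possible, adjusted 0.0001017). The start ratio was largest in iPSCs at 0.83 and smallest in cKit+ at 0.23.

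H3K4me3 was concentrated in the first bin, with 3.81% in D0 against 0.807% in bin 5. The start ratio was 2.27 ± 0.27 on the log2 scale (SD, 7 libraries), 4.81-fold, and the end ratio was 0.30 ± 0.07, 1.24-fold (exact permutation p = 0.01562, adjusted 0.01953 for each). When the first 10 kb of each body were left out, a setting chosen after seeing the data, the H3K4me3 start ratio was 0.20 (exact permutation p = 0.09375, adjusted 0.1172), so the excess lay mostly within 10 kb of the annotated start. For H3.3 the start ratio in this setting was 0.23, positive in 15 of 16 libraries (exact permutation p = 6.104e-05, adjusted 0.0002035). H3K36me3 rose towards the last bin. In D0 it covered 2.08% of the first bin, 1.64% of bin 5 and 5.25% of the last, and in iPSCs 0.189%, 0.117% and 0.314%. The end ratio was 1.31 ± 0.18 (SD, 7 libraries), 2.49-fold, positive in 7 of 7 (exact permutation p = 0.01562, adjusted 0.01953). The start ratio of H3K36me3 was -0.067 ± 0.28, negative in 4 and positive in 3 of 7 libraries (exact permutation p = 0.5469).

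**Figure D3:**
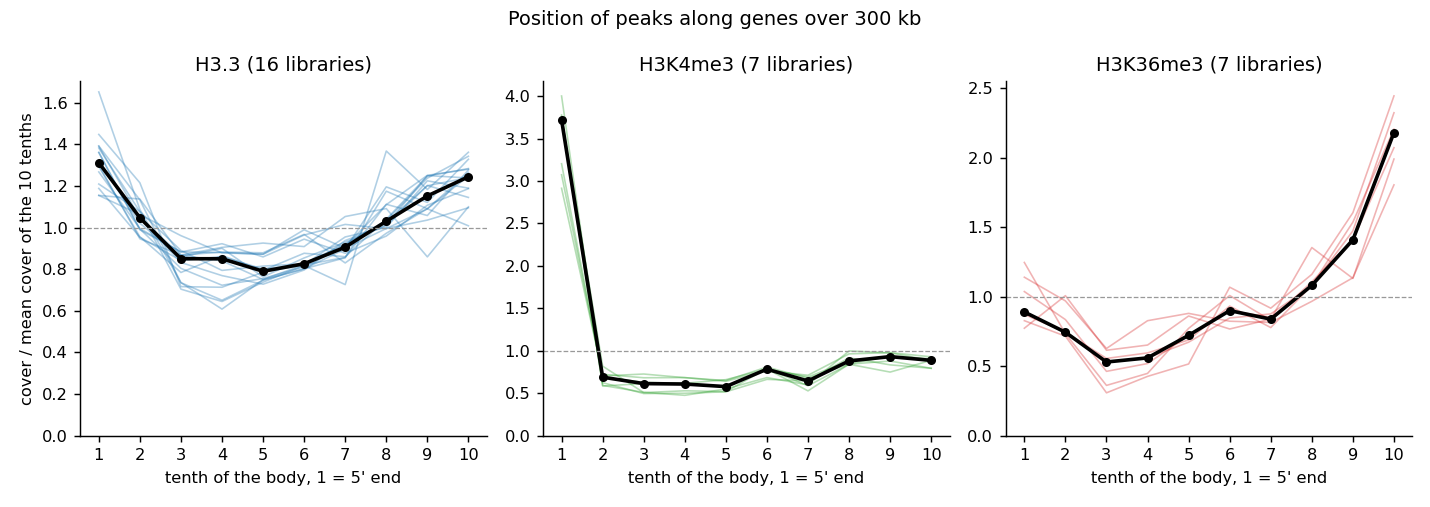
Cover of each of 10 bins of equal length along the 528 bodies, 5' to 3', divided by the mean of the 10 bins, with a thin line per library and a thick line for the median over libraries. H3.3 is raised at both ends, H3K4me3 in the first bin and H3K36me3 in the last, 2.49-fold over bins 2 to 9.

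By distance from the start, H3K4me3 covered a median of 56.1% of bases within 2 kb, 3.89% from 2 to 10 kb and 0.640% from 10 to 30 kb. For H3.3 the medians were 5.96%, 2.04% and 1.54%, and still 1.19% at 200 to 300 kb from the start. Only 3.65 to 10.8% of H3.3 peaks in long bodies lay within 1 kb of an annotated transcript start of a protein-coding gene (median 7.66%). For H3K4me3 peaks this was 25.4 to 43.7%. Starts and exons of non-coding genes, such as Dnm3os, were not counted. Exons of protein-coding genes made up 1.69% of the long bodies, and 2.74 to 4.83% of the base pairs under H3.3 peaks. For H3K4me3 the exonic share was 10.4 to 17.3%, and for H3K36me3 it was 9.00 to 17.6%. Most of the H3.3 cover of long genes thus lay outside these exons, and most H3.3 peaks lay more than 1 kb from these starts.

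Cover by H3.3 and H3K36me3 was set side by side gene by gene and base by base. In D0, the 174 long genes with H3K36me3 over at least 1% of the body had a median H3.3 share of 4.64%, and 158 of them had H3.3 over at least 1%. The 127 with less H3K36me3 had a median of 1.19%, and the 227 without any had 0.205%, with no H3.3 peak in 72. In iPSCs the corresponding groups held 16, 107 and 405 genes, with medians of 6.99%, 1.32% and 0.250%. On the base level, 11.3% of the H3.3 cover of long genes in D0 was also under H3K36me3, which covered 2.38% of all their bases. In bodies of 100 to 300 kb the shared part was 24.3%, where H3K36me3 covered 11.8% of bases. With H3K4me3 the shared part was 16.1% in long genes (1.24% of bases under the mark) and 15.1% in bodies of 100 to 300 kb (2.88%). These are descriptions over genes of single libraries, and genes are not replicates.

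Long genes were then grouped by function, or by lying at common fragile sites, into 7 lists that held 251 of the members. Some genes were in several lists, so the lists are not separate groups. H3.3 cover of each list is given on the log2 scale against that of all 526 long bodies without Gm20388 and Fgfr2. Transcription and chromatin regulators (41 genes) had the most, with a median over libraries of 0.83 and a value above 0 in 16 of 16 libraries. Kinases, phosphodiesterases and growth factor signalling genes (54) had 0.53, also above 0 in 16. Cadherins, catenins and junction scaffolds (24) lay near the average at 0.036, above 0 in 9 of 16. When each list was taken without its member of the largest mean H3.3 share, a setting chosen after seeing the data, the transcription list was at 0.63 without Msi2 and above 0 in 14 of 16 libraries. The kinase list was at 0.31 without Macf1, above 0 in 15 of 16, and the cadherin list was at -0.40 without Lpp, above 0 in 2 of 16.

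The remaining lists were below the average in every H3.3 library, with and without their leading member. Matrix, basement membrane and dystrophin complex genes (25) had a median log2 ratio of -0.86, and genes of common fragile sites (29) had -1.22. Synaptic and axon adhesion genes (52) had -1.54, and ion channels and glutamate receptors (40) had -1.66. The lists also differed in length, with median bodies of 426.9 kb for the transcription list, 422 kb for the kinases, 707.5 kb for synaptic adhesion and 1125 kb for fragile sites. The median was 447.4 kb for ion channels and 439.2 kb for all members. The part of length in these differences was not tested.

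**Figure D4:**
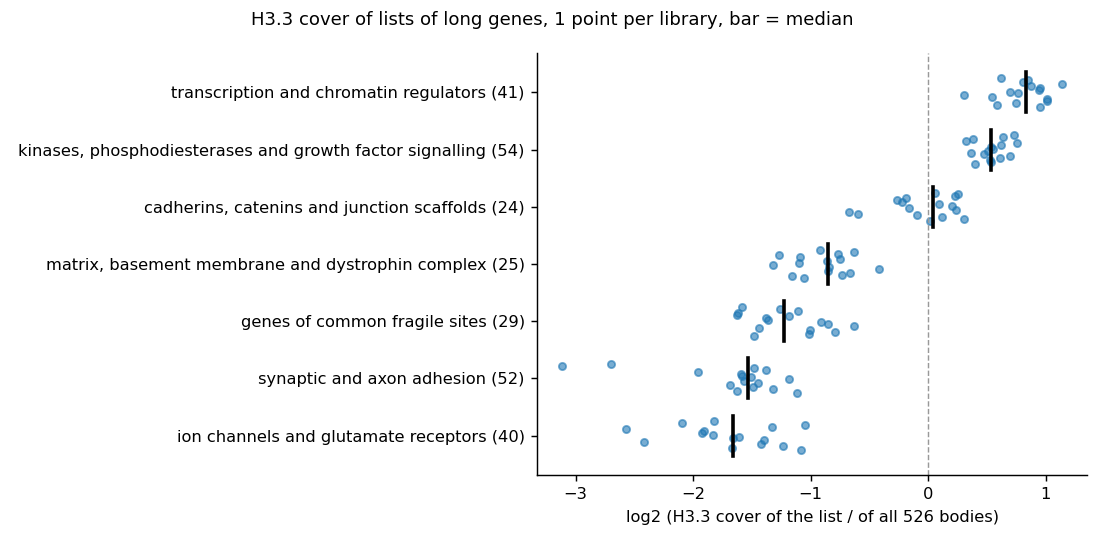
Log2 of the H3.3 cover of 7 lists of long genes over that of all 526 long bodies without Gm20388 and Fgfr2, 1 point per library and a bar at the median. Transcription and chromatin regulators lie above 0 in 16 of 16 libraries (14 without Msi2), ion channels and synaptic adhesion genes below 0 in all of them.

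H3.3 covered at least 1% of the body in D0 in 29 of 41 transcription and chromatin regulators, 41 of 55 kinases and signalling genes (Fgfr2 included), 18 of 52 synaptic adhesion genes and 16 of 40 ion channels, beside 280 of all 528. In iPSCs these were 9, 20, 4 and 2, beside 142 of 528. In the transcription list, the highest H3.3 shares were those of Msi2 and of Foxp1, a forkhead factor (median 7.63%, up to 36.7% in D4), beside Tcf4. Msi2 is an RNA-binding protein and no transcription factor. The corepressor gene Rere, with a median of 24.4% against 14.6% for Msi2, was not in this list, so the list is not complete. Macf1, which is a cytoskeletal crosslinker and no kinase, led the signalling list before the kinase gene Mast4 (median 9.34%) and adenosine kinase Adk (6.91%). Among matrix genes, Ltbp1, whose product binds latent TGF-beta, had 17.04% in D0, 5.74% in MEF, 0.135% in iPSCs and 0.176% in ESD3. Utrn, the dystrophin relative, ranged from 2.08 to 33.4%, followed by Adamtsl1 with a median of 1.39%.

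Among the junction genes, the focal adhesion gene Lpp was high in fibroblasts and day 4 cells, with 27.9% in D0, 11.1% in MEF, 79.7% in D4, 4.52% in iPSCs and 0.687% in ESD3. The polarity gene Pard3 and the scaffold gene Magi1 had medians of 4.63% and 3.77%. The low lists also held covered members. Slit3, which encodes a secreted guidance ligand, had 15.9% in D0, 7.71% in MEF, 21.8% in D4, 0.152% in iPSCs and 1.34% in ESD3. Odz4 and Dlgap1 followed it in the synaptic list, with medians of 2.31% and 2.78%. The L-type calcium channel gene Cacna1c reached 22.4% in D4 with a median of 0.658%, and Kcnip1 and Gabbr2 had medians of 0.926% and 0.882%. Large, Exoc4 and Mad1l1 led the fragile site list, with medians of 2.71%, 3.05% and 2.21%.

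Long genes with cover in one cell state only were counted next, where a single base pair of peak in the body counts as cover. Fibroblast-only H3.3 cover, in both D0 and MEF and in neither iPSCs nor ESD3, was found in 45 long genes (8.52%), against 4.42% of all 22367 genes and 7.05% of those of 100 to 300 kb. Pluripotent-only cover, in both iPSCs and ESD3 and in neither D0 nor MEF, was found in 19 (3.60%), against 3.85% of all genes and 2.62% of those of 100 to 300 kb. A longer body offers more bases for a peak, so the shares beside genes of 100 to 300 kb are the closer comparison. For the fibroblast-only genes the cover was modest, with a median of 4 peaks and 3.27 kb in D0 and 2 peaks and 1.71 kb in MEF, and 28 of 45 had cover in the first bin. For the pluripotent-only genes it was smaller still, with 2 peaks and 1.95 kb in iPSCs and 1 peak and 1.06 kb in ESD3, and 4 of 19 had cover in the first bin. When at least 5 kb of cover was required, 6 fibroblast-only and 0 pluripotent-only genes were left. With equal peak numbers in each library the counts were 73 and 40. With only peaks at a fold over input of at least 4, the order was reversed, with 9 fibroblast-only and 29 pluripotent-only genes. Genes of other lengths were not counted under these 3 settings, so the shifts are not read as particular to long genes.

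Dnm3 (chr1:163912584-164408165, minus strand), a dynamin gene, was the strongest fibroblast-only case. Peaks covered 72.41 kb of it in D0, 42.99 kb in MEF and 119.2 kb in D4, and 0 kb in iPSCs, ESD3 and D16S+. As a share of the body, it had 14.6% in D0 and 3.62% in D3, and then 6.97% (D6T-), 4.56% (D9T-) and 0.283% (D12S+). In the other fractions it had 3.86% (D6T+), 5.26% (D9T+), 4.24% (D12S-) and 1.14% (D16S-). H3K4me3 covered 5.61% of it in D0, 0.436% in D12S+, none in D16S+ and 0.442% in iPSCs.

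The strongest Dnm3 peak in D0 (chr1:164150828-164157244) covered 61.2% of Dnm3os and the whole of Mir214. Dnm3os is the known antisense host of Mir214 and Mir199a-2, so the H3.3 peak over this intron of Dnm3 is also a peak over that transcript. Mir214 lay under a peak in 8 of the 16 H3.3 libraries, namely D0, D6T-, D9T-, D6T+, D9T+, D12S-, MEF and D4. Mir199a-2 lay under a peak in 7, with none in D0. Neither was under a peak in D12S+, D16S+, D16S-, iPSCs, ESD3 or either cKit fraction.

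The next fibroblast-only genes by the smaller of the values in D0 and MEF were 1700112E06Rik (23.95 kb), the semaphorin gene Sema5a (7.44 kb), the F-box gene Fbxl7 (6.61 kb), Nckap5 (5.96 kb) and Sorbs2 (5.72 kb). None of these 5 had a peak in D12S+, D16S+, iPSCs or ESD3. All of them had a peak in D3, D6T-, D9T-, D6T+, D9T+, D12S- and D16S-. In D4 they had 22.8 to 64.3 kb.

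**Figure D5:**
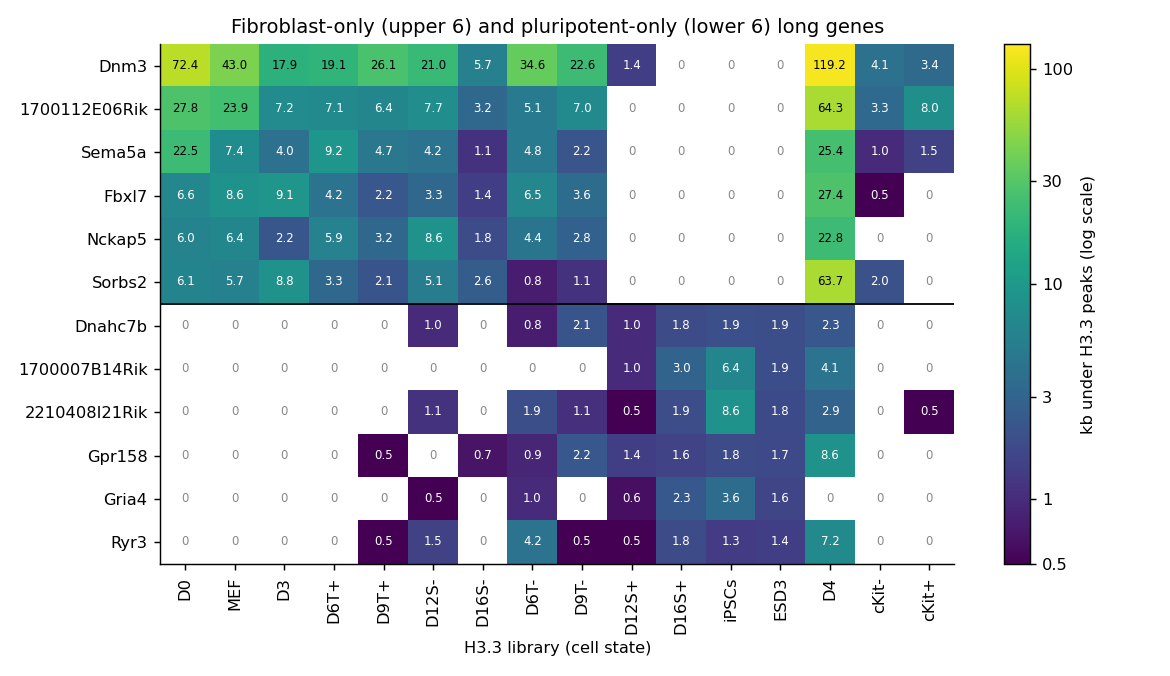
Kilobases under H3.3 peaks (colour, log scale, value in each cell) in the body of 12 long genes in 16 H3.3 libraries. The upper 6 genes were chosen for cover in D0 and MEF and none in iPSCs and ESD3. The lower 6 were chosen for cover in iPSCs and ESD3 and none in D0 and MEF. Those 4 columns follow from the choice, while the other 12 do not.

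In libraries that did not enter the choice, the 45 fibroblast-only genes mostly had H3.3 peaks up to day 9 on the way to iPSCs and rarely afterwards. A peak was present in 36 of 45 on day 3 (D3), in 37 (D6T-) and 36 (D9T-) after the Thy-1 sort, and in 9 (D12S+) and 3 (D16S+) after the SSEA-1 sort. The other fractions had 33 (D6T+), 32 (D9T+), 36 (D12S-) and 24 (D16S-). Among the 989 fibroblast-only genes of all lengths, 68.6% had a peak in D3, 64.5% in D6T-, 62.1% in D6T+ and 56.5% in D9T+. In D9T- it was 54.4%, in D12S+ 24.9% and in D16S+ 11.8%, against 70.1% in D12S- and 53.2% in D16S-. The same course was thus seen beyond the long genes. With equal peak numbers in each library, the long genes with a peak were 16 of 45 in D9T-, 5 in D12S+ and 1 in D16S+, and 19 in D12S- and 12 in D16S-. D12S+ and D16S+ had 45850 and 33972 H3.3 peaks, D12S- and D16S- had 87427 and 65376. During transdifferentiation, 45 of 45 had a peak in D4, 17 in cKit+ and 22 in cKit-. As shares these were 100%, 37.8% and 48.9%, against 98.2%, 32.8% and 32.7% of the 989 genes. In D4 506 of all 528 long genes had a peak.

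Most of these genes had H3K4me3 in both states. Of the 45, 44 had H3K4me3 in D0 and 39 in iPSCs, with a median of 2.72 kb and 1.25 kb. Of the 989 fibroblast-only genes of all lengths, 87.9% and 68.6% had it. H3K36me3 was found in 24 in D0 (53.3%) and 3 in iPSCs (6.67%), against 50.4% and 14.3% of the 989.

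The 19 pluripotent-only genes had peaks in uneven numbers along the route. A peak was present in 4 on day 3, in 11 (D6T-) and 9 (D9T-) after the Thy-1 sort, and in 11 (D12S+) and 14 (D16S+) after the SSEA-1 sort, while the other fractions had 0 (D6T+), 6 (D9T+), 8 (D12S-) and 2 (D16S-). With equal peak numbers it was 1 in D6T-, 5 in D12S+ and 13 in D16S+. In D4 13 had a peak. As shares these were 57.9% (D6T-), 57.9% (D12S+), 73.7% (D16S+), 42.1% (D12S-), 10.5% (D16S-) and 68.4% (D4). Pluripotent-only genes of all lengths (861 genes) had 45.2%, 50.6%, 47.7%, 54.7%, 38.2% and 63.4% in the same libraries. In D3, D9T-, D6T+ and D9T+ the shares were 21.1%, 47.4%, 0% and 31.6%, against 26.5%, 47.3%, 15.8% and 30.2% of the 861. H3K4me3 was present in 16 of 19 in D0 and 17 of 19 in iPSCs, or 84.2% and 89.5%, against 69.5% and 81.5% of those 861 genes.

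The leading pluripotent-only genes by the smaller of the values in iPSCs and ESD3 were the axonemal dynein gene Dnahc7b (1.89 kb), 1700007B14Rik (1.89 kb), 2210408I21Rik (1.76 kb), the orphan receptor gene Gpr158 (1.72 kb), the AMPA receptor subunit gene Gria4 (1.60 kb) and the ryanodine receptor gene Ryr3 (1.33 kb). Each had a peak in D12S+ and D16S+, and none of the 6 had one in D3 or D6T+. In D6T- 5 of the 6 had a peak, all but 1700007B14Rik. In no pluripotent-only gene did the cover exceed 8.55 kb in iPSCs or 1.89 kb in ESD3.

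H3K4me3 was found only in D0 and not in iPSCs in 23 long genes (4.36%, beside 4.26% of all genes and 5.07% of those of 100 to 300 kb), and only in iPSCs in 5 (0.947%, beside 3.02% and 1.66%). The RNA-binding protein gene Rbms3 (chr9:116481864-117539031, minus strand) had the most D0-only H3K4me3, 28.4 kb. It had H3K4me3 over 2.68% of its body in D0, 1.23% in D3, 1.26% in D6T-, 0.643% in D9T- and none in D12S+, D16S+ and iPSCs. Its H3.3 share was 14.8% in D0, 2.65% in D3, 0.940% in D6T- and 0.750% in iPSCs, and 4.08% in D6T+. Sema3a, a secreted semaphorin (10.05 kb), and the neuron navigator gene Nav3 (7.36 kb) followed, then Slc9a9, Rbfox1 and Agbl1 with 6.38, 4.25 and 2.72 kb. The iPSC-only genes were Scaper (2.06 kb), 1700007B14Rik (1.87 kb), Spata16, Cntnap5c and Rgs7 (0.762, 0.596 and 0.5 kb). 1700007B14Rik was also among the pluripotent-only genes for H3.3. Rgs7 went the other way and was among the fibroblast-only genes for H3.3, with 2.568 kb in D0 and 1.795 kb in MEF.

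H3K36me3 was found only in D0 in 201 long genes (38.1%, beside 17.8% of all genes and 27.9% of those of 100 to 300 kb), and only in iPSCs in 23 (4.36%, beside 3.08% of all genes and 4.38% of those of 100 to 300 kb). Rbms3 led again with 229.5 kb, followed by Slit3 (176.5 kb), the nuclear envelope gene Syne1 (155.5 kb), the kinesin gene Kif26b (149.3 kb), Nbas (117.2 kb) and Frmd4a (99.31 kb). Rbms3 had H3K36me3 over 21.7% of its body in D0, 5.82% in D3, 0.166% in D6T- and 0.258% in D9T-. Slit3 had 30.05%, 5.44%, 0.184% and 3.46% in these states, and both had at most 0.170% later. Nbas had a different course, with 37.2% in D0, 12.9% in D3, 3.88% in D6T- and 28.6% in D9T-, and had 0.159% in D12S+. Nav3 likewise had 22.1% in D0 and 24.1% in D9T-. Rbms3 was thus below 1% from D6T- on, and Nbas from D12S+ on. The share of H3K36me3 tags in peaks was 7.50% in D6T-, 42.4% in D9T- and 1.07% in D12S+, and its part in these values was not tested.

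The iPSC-only H3K36me3 calls were small, led by Camta1 (3.5 kb), a calmodulin-binding transcription activator gene, and by Zbtb7c, Ranbp17, Fry, St6galnac3 and Mtus2 (1.83, 1.66, 1.5, 1.26 and 1.0 kb). With equal peak numbers, 84 long genes had D0-only and 15 iPSC-only H3K36me3.

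Across all states, 122 long genes had an H3.3 peak in all 16 libraries, 395 in 2 to 15 and 10 in a single library. Of these 10, 6 had it in D4 only, 3 in iPSCs only (Khdrbs2, Skint5 and Nxph1, with 1.07, 3.15 and 1.63 kb) and Cntn3 in D6T- only (0.5 kb). Zcchc16 on chromosome X, of 433.504 kb, had none in any. Peaks in all of D0, MEF, iPSCs and ESD3 were found in 284 and in none of these 4 in 23. Pola1, a DNA polymerase alpha subunit gene, was the one member with H3.3 in both cKit fractions and in none of those 4 libraries. These genes were named after their values were seen. A single base pair of peak was enough here, and a longer body offers more bases for it. The same counts were not made for shorter genes, so they are not read as particular to long genes.

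The longest unbroken H3.3 run over long genes was in 2010111I01Rik (chr13:63066253-63427404, plus strand) in 6 libraries, with 19.02 kb in D0, 41.99 kb in D6T-, 18.4 kb in D9T+, 26.85 kb in D12S-, 18.5 kb in D16S- and 12.85 kb in MEF. H3.3 peaks covered Mir23b and Mir27b, microRNAs inside this gene, in 10 of the 16 libraries, but not in D12S+, D16S+, iPSCs, ESD3 or the cKit fractions. The gene as a whole was not fibroblast-only, with H3.3 over 3.54 to 44.4% of its body. In D4 the longest run, 91.29 kb, lay in Gm20388.

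Peak centres in long genes were searched for short motifs on both strands in windows of 200 bases. TGANTCA, a core bound by AP-1 factors such as Fos and Jun, was found in 11.1% of 6984 D0 peaks in long genes (95% Wilson interval 10.4 to 11.9%), 9.53% in MEF and 11.4% in D4. It was found in 6.37% in iPSCs (5.58 to 7.25%) and 6.21% in ESD3, and in 6.16% of all 1490795 windows that tile the long bodies. The octamer ATGCAAAT was found in 1.15% of D0 peaks in long genes (0.921 to 1.42%), 1.55% in iPSCs (1.18 to 2.03%) and 2.01% in ESD3 (1.52 to 2.66%), and in 1.80% of all tiles. Among all peaks of the library, in long genes or not, TGANTCA was in 9.21% in D0 and 6.07% in iPSCs. The intervals cover counting error only, and a match is a description of letters and no evidence of binding.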

How the data were processed

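ChIP-seq peak lists of 30 libraries (16 H3.3, 7 H3K4me3 and 7 H3K36me3) from 46 samples were used, and the 16 inputs were not analysed on their own. Reads had been mapped to mm9 with STAR, reads at more than one locus were removed, and peaks were called with HOMER in histone style for each library against an input, with some inputs shared. Versions are not given in the sources used here. Peak scores are signal values, tag counts that the authors scaled to 10 M tags in a library, and deposited fold values are ratios of tags to input tags, at least 2 for H3.3 and 4 for the other marks. Bodies were taken from GENCODE vM1 protein-coding genes on chromosomes 1 to 19, X and Y. Peaks of a library were merged, and cover is the share of base pairs under them, pooled over bodies. Log2 ratios were tested over libraries with two-sided exact sign-flip permutation tests, adjusted over 10 tests by Benjamini-Hochberg, with Python 3.11.15, NumPy 2.4.6, pandas 2.3.3 and SciPy 1.17.1. The cover script was tested on simulated peaks.

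The groups came from the sample titles, with 1 library per group, so a difference between 2 states has no replicate check. Members, lists and calls were chosen with earlier results of these data known. Genes were named by rule: the 10 longest, the up to 6 genes with most cover for each one-state call, the 5 largest shares in D0 and in iPSCs for each mark, and the 3 members with the largest mean H3.3 share in each list. Promoter sequence was not used. Alternatives were equal peak numbers by score (25593 for H3.3, 19566 for H3K4me3, 12308 for H3K36me3), peaks at or above the median score, fold of at least 4, limits of 200 and 500 kb, other minimum cover, leaving out the outer bins, GC content, and each library left out.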

Additional observations from a re-analysis of the deposited data

How the results depend on the processing

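No paired analysis was possible because every group had 1 library and the labels pair no replicates, apart from the route contrast, which sets the 2 fractions of a day against each other. Leaving out each library in turn changed no direction and no side of the 0.05 threshold of the 10 contrasts. The H3K4me3 start contrast was 0.20 (adjusted p = 0.1172, exact permutation test) without the first 10 kb of each body, a setting chosen after seeing the data, and the H3K4me3 end contrast was 0.17 (adjusted p = 0.0586) with peaks at or above the median score. Among contrasts that did not pass the threshold, that of H3K36me3 at the start was 0.15 in bodies over 500 kb, and that of the route was -0.014 in bodies over 200 kb. Counts of genes with cover in one state only depended on most settings. Limits of 200 and 500 kb also change which genes are counted, so those counts are not shifts within the same genes. Bodies over 500 kb were the 148 of 500 to 1000 kb and the 52 above 1000 kb. In the order fibroblast-only H3.3, pluripotent-only H3.3, D0-only H3K4me3, iPSC-only H3K4me3, D0-only H3K36me3 and iPSC-only H3K36me3 they were 73, 40, 57, 11, 84 and 15 with an equal number of peaks, 14, 6, 7, 2, 71 and 8 for bodies over 500 kb, and 6, 0, 4, 0, 94 and 0 with at least 5 kb of cover. For bodies over 200 kb they were 76 (fibroblast-only H3.3), 48 and 14 (H3K4me3), and 344 and 38 (H3K36me3). At the median score they were 37 (pluripotent-only H3.3), 70 (D0-only H3K4me3) and 12 (iPSC-only H3K36me3). With at least 1% of the body they were 82 and 8 for H3.3, 153 and 9 for H3K4me3, and 2 for iPSC-only H3K36me3. H3.3 peaks at a fold of at least 4 gave 9 fibroblast-only and 29 pluripotent-only genes, and leaving out the first bin gave 126 and 58 for H3K4me3. The H3.3 start contrast was 0.23 without the first 10 kb. Where the set of genes was unchanged, the cause of these shifts was not tested.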
